A study of Homo sapiens with 12 samples.

Results

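The genes described here are 7 of the 58735 genes in the deposited table, found by their symbols: AKR1B1, SLC5A3, SLC6A12, SLC6A6, SLC38A2, NFAT5 and HSPA4L. They are known from the response of cells to hypertonic surroundings, and all 7 passed the filter on low counts in every comparison. They were chosen with earlier results of these data known, so their counts, ranks and medians beside all genes are no independent test. The study sequenced RNA of HK-2 cells, an immortalized cell line of human renal proximal tubular epithelium, to ask how 3 nephrotoxic drugs change gene expression. The 12 samples formed 4 groups of 3: a control group for which the labels name water, and 3 drug groups that were exposed for 48 h. The drugs were the iodinated contrast agent iohexol at 75 mg I/mL, the platinum antitumor agent cisplatin at 5 μM, and the glycopeptide antibiotic vancomycin at 4 mM. All groups were the same cell line, so they share its immortalized background, and the labels do not say whether the 3 samples of a group came from separate cultures. The p-values below therefore measure only the spread between these samples, which may be technical. The osmolality of the media was not analysed here.

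A cell placed in a hypertonic medium loses water and then fills itself with organic osmolytes, small neutral compounds that do not disturb its proteins. AKR1B1 (aldose reductase) makes sorbitol, while SLC5A3, SLC6A12 and SLC6A6 bring in myo-inositol, betaine and taurine, and SLC38A2 brings in small neutral amino acids. NFAT5, also called TonEBP, is the transcription factor known to turn on many of these genes, most familiarly in the renal medulla, and HSPA4L is a chaperone of the HSP110 family whose older name is osmotic stress protein 94.

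The RefSeq promoter table (GRCh38.p14) held windows of 300 bases, from 250 before to 50 after a gene start, for 4 of the 7 genes: AKR1B1, SLC5A3, SLC38A2 and HSPA4L. NFAT5, SLC6A12 and SLC6A6 had no entry. AKR1B1 had 2 windows and HSPA4L 3, one for each RefSeq start, and SLC5A3 and SLC38A2 had 1 each. One window is shown for each gene: for AKR1B1 the one further into the gene, and for HSPA4L the one with the most matches, which lies furthest into the gene and was chosen for them. The windows of the genes whose values are described most closely are shown 5′ to 3′ on the strand of the gene, with capitals marking TGGAAA, the core letters of the NFAT5 binding site, or its complement TTTCCA. The AKR1B1 window is chr7:134459051-134459350 on the minus strand, and the SLC5A3 window, which is at the same time the window of MRPS6, is chr21:34073328-34073627 on the plus strand. The SLC38A2 window is chr12:46372724-46373023 on the minus strand, and the HSPA4L window is chr4:127783273-127783572 on the plus strand.
AKR1B1: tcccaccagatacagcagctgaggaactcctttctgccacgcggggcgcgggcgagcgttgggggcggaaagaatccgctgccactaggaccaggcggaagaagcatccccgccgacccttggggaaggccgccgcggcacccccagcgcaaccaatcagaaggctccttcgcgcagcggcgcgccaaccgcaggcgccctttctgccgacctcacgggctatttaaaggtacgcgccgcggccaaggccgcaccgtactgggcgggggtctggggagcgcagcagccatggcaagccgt
SLC5A3 and MRPS6: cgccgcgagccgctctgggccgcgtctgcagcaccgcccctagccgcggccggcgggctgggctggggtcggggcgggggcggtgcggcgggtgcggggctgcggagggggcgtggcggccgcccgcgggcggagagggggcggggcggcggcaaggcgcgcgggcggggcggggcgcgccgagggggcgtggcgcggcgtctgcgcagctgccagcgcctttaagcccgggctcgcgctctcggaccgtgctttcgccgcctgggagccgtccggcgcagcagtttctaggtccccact
SLC38A2: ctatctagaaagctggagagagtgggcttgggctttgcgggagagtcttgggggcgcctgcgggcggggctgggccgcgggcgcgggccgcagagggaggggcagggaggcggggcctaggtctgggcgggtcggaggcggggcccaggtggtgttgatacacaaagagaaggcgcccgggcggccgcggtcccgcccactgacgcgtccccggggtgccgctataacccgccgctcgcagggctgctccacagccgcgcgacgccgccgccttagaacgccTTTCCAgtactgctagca
HSPA4L: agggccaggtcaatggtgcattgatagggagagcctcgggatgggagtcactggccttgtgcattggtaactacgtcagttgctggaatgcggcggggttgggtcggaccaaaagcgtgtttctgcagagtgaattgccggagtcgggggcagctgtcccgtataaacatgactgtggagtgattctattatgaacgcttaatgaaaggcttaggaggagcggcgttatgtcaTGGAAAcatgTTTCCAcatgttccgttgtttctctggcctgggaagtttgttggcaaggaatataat

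Both AKR1B1 windows and the SLC5A3 window held no TGGAAA on either strand. The SLC38A2 window held 1 match on the strand opposite to the gene, and the HSPA4L window shown held 1 match on each strand. Of the HSPA4L windows not shown, the one at the start of the gene (chr4:127781546-127781845) held 0 matches and the next (chr4:127782072-127782371) held 1, on the strand opposite to the gene. The same letters were found in 20.8% of the 34943 promoter windows of the table, and the longer TonE consensus, found in 4.93% of them, matched 2 times in the HSPA4L window shown, 1 time in the SLC38A2 window and in no other window of a member. The 2 matches in the HSPA4L window overlap and are 1 palindromic stretch read on both strands, while the percentages count windows and not matches. These are matches of letters within 300 bases and say nothing of binding elsewhere. The SLC5A3 window had a GC content of 82%, against a median of 58.7% over all windows.

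Against control, 5 of the 7 genes rose with iohexol, and none fell, where 11.2% of all genes tested rose, 9.77% fell and 21.0% changed in either direction (adjusted p under 0.05, edgeR's quasi-likelihood test with Benjamini-Hochberg adjustment). At an unadjusted p under 0.05, 1 gene was lower, HSPA4L, and DESeq2 called none lower, while other settings given with HSPA4L below called it lower. Of the 5 genes, 3 also passed a log2 fold change of 1 (AKR1B1, SLC5A3 and SLC6A12), as did 4.02% of all genes. With cisplatin 6 changed, 3 up and 3 down, where 59.8% of all genes tested changed, 29.2% up and 30.6% down. With vancomycin 5 changed, 2 up and 3 down, against 57.9% of all genes, 29.0% up and 28.8% down. The counts for cisplatin and vancomycin are thus to be read against a background in which most genes passed the same test. The iohexol background itself moved with the samples used. Without iohexol sample 3, 4544 of 16067 genes tested were called with iohexol, 6 members among them. Without iohexol sample 1 or 2, 2287 of 16112 or 2111 of 16016 were called, with 5 members in each. The median log2 fold change of the 7 genes was 0.84 with iohexol, 0.15 with cisplatin and 0.17 with vancomycin, beside 0.01, 0.01 and −0.01 over all genes tested. The 3 comparisons share the same control samples. As the 7 genes were chosen with earlier results known, these counts and medians may partly restate that choice.

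**Figure D1:**
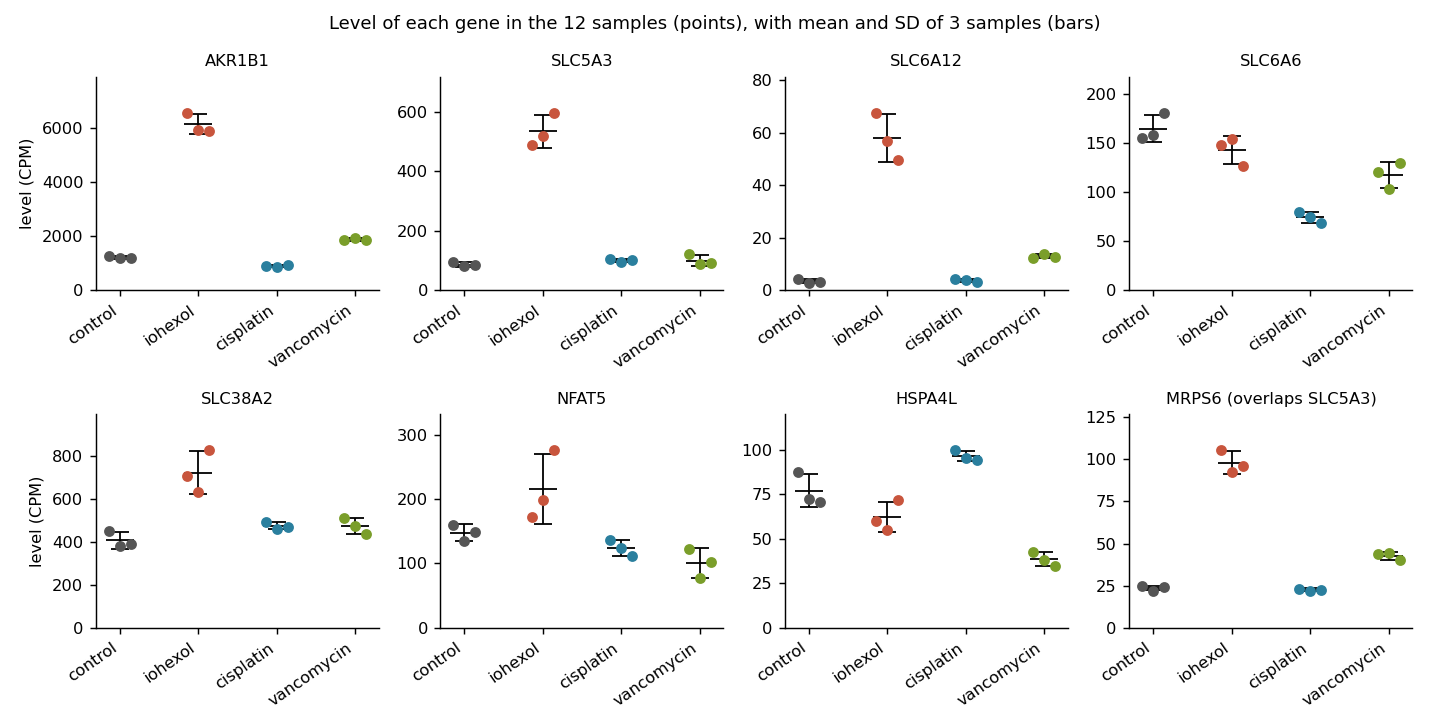
Normalised read counts (CPM, vertical axes from 0) of the 7 genes and of MRPS6, which overlaps SLC5A3, in each of the 12 samples (points) by group, with the mean and SD of 3 samples (bars). AKR1B1, SLC5A3, SLC6A12, SLC38A2, NFAT5 and MRPS6 stand above all other groups in the 3 iohexol samples. For NFAT5 the margin is small (lowest iohexol sample 172.0, highest control sample 160.7 CPM). SLC6A6 is lowest with cisplatin and HSPA4L with vancomycin.

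AKR1B1, which reduces glucose to sorbitol, is encoded on chromosome 7 (ENSG00000085662, 134442350 to 134459284, minus strand, GRCh38). Its normalised read counts (CPM, counts scaled to library size and composition) were 1266, 1196 and 1184 CPM in the 3 control samples and 6578, 5954 and 5912 CPM in the 3 iohexol samples. They were 893.1, 868.1 and 929.5 CPM with cisplatin and 1849, 1949 and 1855 CPM with vancomycin. No group overlapped another, and the order from low to high was cisplatin, control, vancomycin and iohexol. The log2 fold change against control was 2.36 ± 0.08 (SE, adjusted p = 6.99e-09) with iohexol, a 5.12-fold rise and the third smallest p of 15657 genes tested in edgeR's fit. It was −0.44 ± 0.05 (adjusted p = 1.32e-06, edgeR) with cisplatin and 0.59 ± 0.08 (adjusted p = 9.76e-07, edgeR) with vancomycin. AKR1B1 took 0.118% ± 0.004 (SD, n = 3) of all counts in the control samples, where it ranked between 47 and 55 among all genes, and 0.633% ± 0.039 (SD, n = 3) with iohexol, where it ranked 4 or 5. Of its transcript sequence, 15.7% of 31-base words also occur in other genes, most often in the pseudogene AKR1B1P1, which was itself given 0 to 6 counts.

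SLC5A3 carries myo-inositol together with sodium and lies on chromosome 21 (ENSG00000198743, 34073570 to 34106262, plus strand). It was at 95.6, 80.1 and 83.9 CPM in the control samples and at 488.8, 518.4 and 596.7 CPM with iohexol. With cisplatin it was at 106.6, 94.5 and 100.4 CPM, and with vancomycin at 122.1, 87.3 and 90.4 CPM. The iohexol samples were far above all others, while the control, cisplatin and vancomycin samples overlapped one another. The rise with iohexol was 6.25-fold (log2 2.64 ± 0.11 SE, adjusted p = 2.72e-08, edgeR). The change with cisplatin was a log2 fold change of 0.22 ± 0.08 (SE, adjusted p = 0.0233, edgeR), and this call was lost without control sample 2 (0.15, adjusted p = 0.158), control sample 3 (0.18, adjusted p = 0.0774), cisplatin sample 1 (0.17, adjusted p = 0.132) or cisplatin sample 3 (0.22, adjusted p = 0.0623), and in a fit of all 4 groups (0.22, adjusted p = 0.115). With vancomycin the log2 fold change was 0.17 (95% interval −0.07 to 0.40, adjusted p = 0.217, edgeR) and did not pass.

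MRPS6, which encodes a protein of the small mitochondrial ribosomal subunit, starts at the same promoter and on the same strand as SLC5A3. Their exons overlap by 273 bases, 2.36% of the exon bases of SLC5A3 and 6.35% of those of MRPS6, so reads in that stretch cannot be given to one gene alone. MRPS6 was at 23.6 ± 1.46 CPM in control samples and rose to 98.1 ± 6.67 CPM with iohexol (SD, n = 3 each; log2 fold change 2.08, adjusted p = 1.30e-07, edgeR). It also rose with vancomycin, to 42.7 ± 2.37 CPM (SD, n = 3; log2 fold change 0.82, adjusted p = 8.71e-07, edgeR), where SLC5A3 did not pass the test. The number of SLC5A3 counts for each MRPS6 count ran from 3.50 to 3.85 in control samples, from 4.63 to 6.20 with iohexol, from 4.36 to 4.58 with cisplatin and from 1.96 to 2.81 with vancomycin. The ratios of each drug group thus lay wholly above the control range with iohexol and cisplatin and wholly below it with vancomycin. Each difference had an exact two-sided permutation p of 0.1, the smallest that 3 against 3 samples allow.

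**Figure D2:**
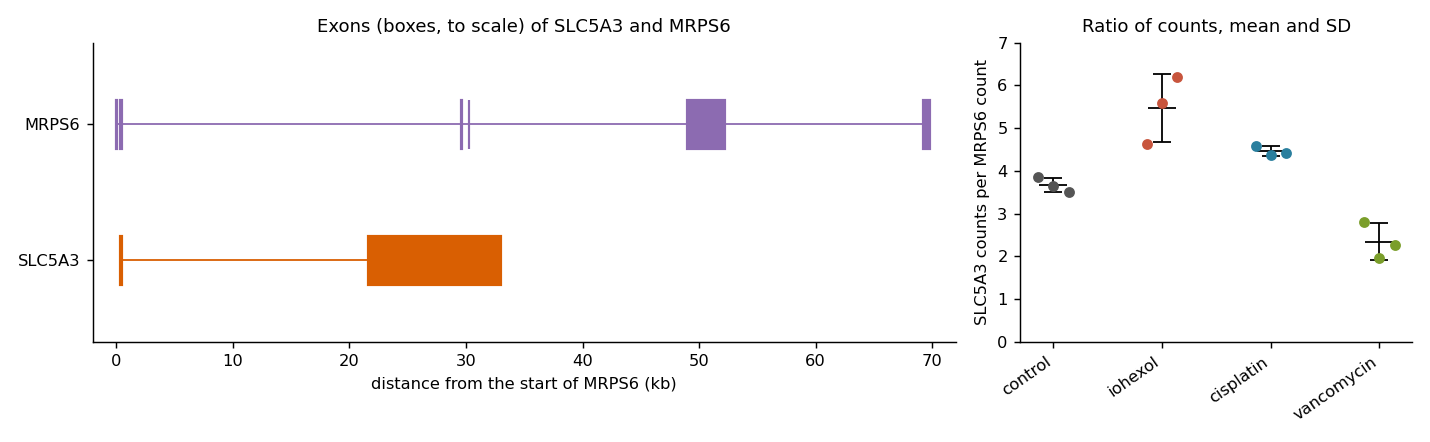
Left, the exons of SLC5A3 and MRPS6 as boxes drawn to scale, by distance in kb from the start of MRPS6, with the first exon of SLC5A3 overlapping the second of MRPS6 and the large SLC5A3 exon spanning 2 short exons of MRPS6. Right, the number of SLC5A3 counts for each MRPS6 count in each sample (points) with the mean and SD of each group (bars). The ratio is highest in the iohexol samples (4.63 to 6.20) and lowest with vancomycin (1.96 to 2.81).

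SLC6A12 (ENSG00000111181, chromosome 12, 190077 to 214570, minus strand) encodes BGT1, the carrier of betaine and GABA, and changed by the largest factor of the 7 genes with iohexol. It was scarce in the control samples, at 4.35, 2.82 and 3.29 CPM, and reached 67.7, 56.8 and 49.6 CPM with iohexol. With vancomycin it was at 12.4, 13.8 and 12.8 CPM, and with cisplatin at 4.42, 4.00 and 3.19 CPM. The cisplatin samples overlapped the control samples, the vancomycin samples lay above both, and the iohexol samples lay above all. The log2 fold change was 4.08 ± 0.18 (SE, adjusted p = 7.00e-08, edgeR) with iohexol, a 16.9-fold rise. It was 1.86 ± 0.18 (SE, adjusted p = 5.92e-09, edgeR) with vancomycin, a 3.62-fold rise that made SLC6A12 the one member past a log2 fold change of 1 in that direction, as were 10.8% of all genes tested. With cisplatin it was 0.15 (95% interval −0.32 to 0.63, adjusted p = 0.570, edgeR). Only 0.243% of its 31-base words occur elsewhere, in its relative SLC6A13, whose counts were 24 to 124 beside 45 to 980 for SLC6A12.

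SLC6A6 (ENSG00000131389, chromosome 3, 14402576 to 14489349, plus strand), the taurine carrier TAUT, did not rise with any of the drugs. It was at 155.7, 157.9 and 181.2 CPM in the control samples and at 147.8, 154.4 and 127.3 CPM with iohexol. It was at 80.0, 75.1 and 68.2 CPM with cisplatin and at 120.5, 103.7 and 129.5 CPM with vancomycin. The cisplatin samples were below all others, and each iohexol sample was below each control sample by a margin that did not pass the test across all genes. The log2 fold change with iohexol was −0.19 (95% interval −0.41 to 0.04, adjusted p = 0.231, edgeR), so a rise as large as that of SLC5A3 or SLC6A12 lies outside its interval. SLC6A6 fell by 1.15 ± 0.08 on the log2 scale (SE, adjusted p = 7.62e-10, edgeR) with cisplatin, and was the one member beyond a log2 fold change of 1 in that comparison, as were 8.72% of all genes tested in that direction. With vancomycin it fell by 0.53 ± 0.10 (SE, adjusted p = 6.41e-05, edgeR).

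Set side by side per gene length (RPKM, CPM divided by the deposited gene length in kilobases), the 3 osmolyte carriers changed places. In the control group SLC6A6 made up 71.0% ± 3.16 (SD, n = 3) of their summed level, SLC5A3 26.6% ± 2.68 and SLC6A12 2.35% ± 0.52. With iohexol SLC5A3 made up 61.9% ± 5.01, SLC6A6 23.3% ± 2.72 and SLC6A12 14.8% ± 2.65 (SD, n = 3). The sum itself was 28.1 ± 1.62 RPKM in the control group, 74.5 ± 1.71 with iohexol, 18.4 ± 1.16 with cisplatin and 25.4 ± 2.43 with vancomycin (SD, n = 3 each). The sums with iohexol were thus above, and those with cisplatin below, those of the other groups. With cisplatin SLC6A6 and SLC5A3 had nearly equal shares, 48.9% ± 1.71 and 47.1% ± 2.12, and with vancomycin the order was that of the control group, with SLC6A12 at 9.78% ± 1.53 (SD, n = 3). For the 3 carriers the deposited length equals all annotated exon bases of the gene, so the shares between genes also depend on the annotation.

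**Figure D3:**
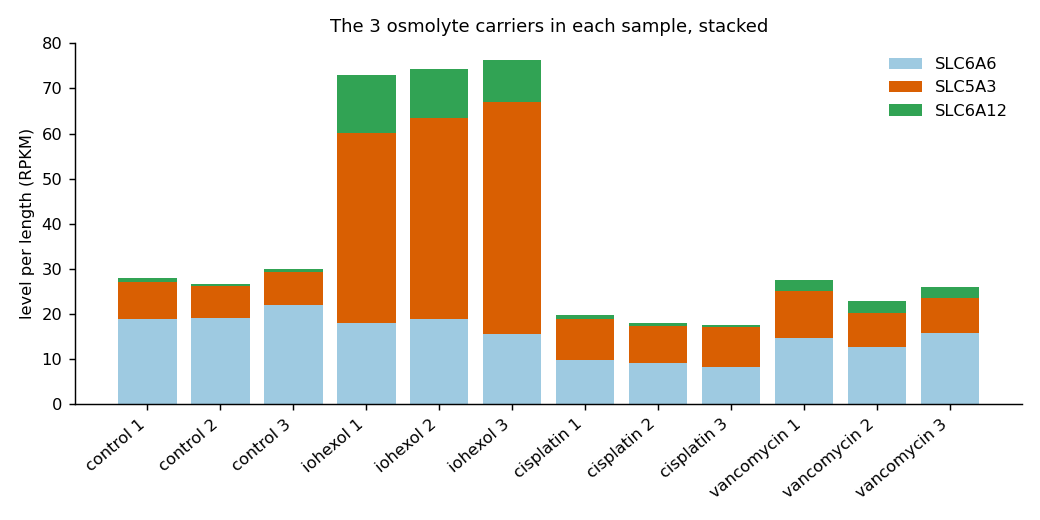
Summed level of SLC6A6, SLC5A3 and SLC6A12 in RPKM for each of the 12 samples as stacked bars that start at 0, by group. SLC6A6 fills most of each control bar (71.0% on average) and SLC5A3 most of each iohexol bar (61.9% on average).

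SLC38A2 (ENSG00000134294, chromosome 12, 46358189 to 46372867, minus strand) encodes SNAT2, a sodium-coupled carrier of small neutral amino acids that cells are also known to raise when amino acids run short. It was at 452.1, 379.2 and 389.5 CPM in the control samples and at 706.9, 631.1 and 826.7 CPM with iohexol, with no overlap. It was at 492.5, 460.7 and 469.6 CPM with cisplatin and at 510.2, 472.5 and 437.2 CPM with vancomycin, and these ranges overlapped each other. The rise with iohexol was 1.79-fold (log2 0.84 ± 0.11 SE, adjusted p = 0.000199, edgeR). The rise with cisplatin (log2 0.22 ± 0.07 SE, adjusted p = 0.00934, edgeR) did not pass without control sample 2 (0.16, adjusted p = 0.0870) or cisplatin sample 1 (0.19, adjusted p = 0.0613), nor in a fit of all 4 groups (0.22, adjusted p = 0.0547). The value with vancomycin (log2 0.18, 95% interval −0.01 to 0.37, adjusted p = 0.106, edgeR) did not pass with all samples and did without control sample 1 (0.26, adjusted p = 0.0167).

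NFAT5 itself (ENSG00000102908, chromosome 16, 69565094 to 69704666, plus strand) rose with iohexol and fell with the other drugs. Its level was 160.7, 134.7 and 148.7 CPM in the control samples and 172.0, 199.6 and 276.7 CPM with iohexol. It was 136.7, 124.5 and 111.8 CPM with cisplatin and 122.5, 77.1 and 102.9 CPM with vancomycin. All iohexol samples were above all control samples but differed widely among themselves, sample 3 being the highest, and all vancomycin samples were below all control samples. The log2 fold change with iohexol was 0.56 ± 0.15 (SE, adjusted p = 0.0187, edgeR), a 1.48-fold rise. This call was lost without control sample 2 (0.48, adjusted p = 0.0965) or control sample 3 (0.55, adjusted p = 0.0651), and without iohexol sample 3 it was kept at a smaller size (0.35, adjusted p = 0.00795). NFAT5 fell by 0.59 ± 0.12 on the log2 scale (SE, adjusted p = 0.000214, edgeR) with vancomycin. With cisplatin it fell by 0.25 ± 0.08 (SE, adjusted p = 0.0122, edgeR), a call that was lost without cisplatin sample 3 (−0.18, adjusted p = 0.108), without composition scaling (−0.03, adjusted p = 0.730) and in a fit of all 4 groups (−0.25, adjusted p = 0.177). In the vancomycin samples the RNA of NFAT5, SLC6A6 and HSPA4L was lower than in the control samples, and that of AKR1B1 and SLC6A12 was higher. SLC5A3 and SLC38A2 were not called there. Any link between the RNA of NFAT5 and that of the other members was not tested, and these data hold no measure of NFAT5 protein. Of the 31-base words of NFAT5, 12.1% occur in other genes, chiefly AC012321.1, which was listed at 0 in all 12 samples. AC012321.1 lies on the same strand and overlaps 1588 exon bases of NFAT5, 9.68% of them. Reads in that stretch cannot be given to a single gene, so the count of 0 does not show that NFAT5 lost no reads.

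HSPA4L (ENSG00000164070, chromosome 4, 127781821 to 127840733, plus strand) is the member that carries osmotic stress in an older name, and it did not rise with iohexol. It was at 87.7, 72.5 and 70.9 CPM in the control samples and at 60.3, 55.2 and 71.8 CPM with iohexol, and the groups overlapped. It was at 100.01, 95.5 and 94.4 CPM with cisplatin, above all control samples, and at 42.5, 38.2 and 34.7 CPM with vancomycin, below all of them. The log2 fold change with iohexol was −0.29 (95% interval −0.55 to −0.02, adjusted p = 0.116, edgeR), and it passed as a decrease without iohexol sample 3 (−0.39, adjusted p = 0.00784), with all genes of at least 1 count (−0.32, adjusted p = 0.0393) and in a fit of all 4 groups (−0.30, adjusted p = 0.0419). HSPA4L rose by 0.33 ± 0.08 (SE, adjusted p = 0.00218, edgeR) with cisplatin and fell by 1.04 ± 0.11 (SE, adjusted p = 2.14e-08, edgeR) with vancomycin, a 2.06-fold decrease past a log2 fold change of −1, as in 7.65% of all genes tested. Without control sample 1 or vancomycin sample 3 the decrease with vancomycin was 0.94 or 0.97 on the log2 scale, still past the test but short of a log2 fold change of 1.

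**Figure D4:**
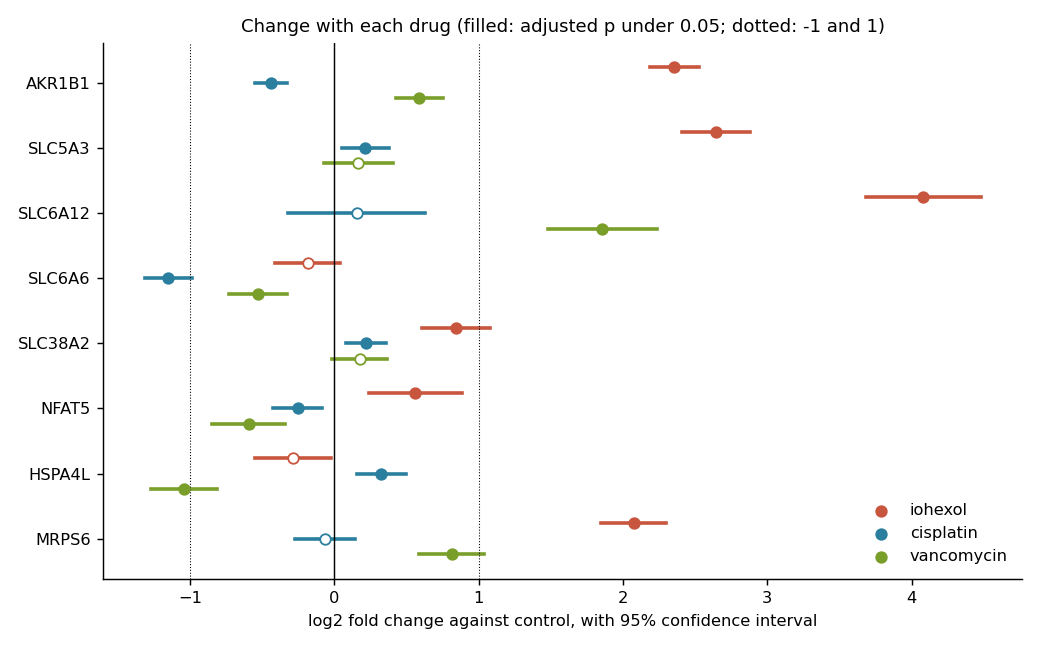
Log2 fold change of each of the 7 genes and MRPS6 against control (horizontal axis) for iohexol, cisplatin and vancomycin, as points with 95% intervals from edgeR's fit, filled where the adjusted p was under 0.05, with dotted lines at −1 and 1. SLC6A12, SLC5A3 and AKR1B1 lie furthest from 0 with iohexol (4.08, 2.64 and 2.36), while SLC6A6 lies lowest with cisplatin (−1.15) and HSPA4L with vancomycin (−1.04).

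The drugs were also compared with one another, by contrasts in an edgeR fit of all 12 samples. Each drug was used at a single dose and the doses are not matched, so these contrasts compare the treated samples and not the drugs at equal strength. Iohexol samples were higher than vancomycin samples for 7 of the 7 genes, where 56.6% of all genes tested differed, 27.6% higher and 29.0% lower. The differences ran from 0.28 for SLC6A6 (adjusted p = 0.0203) to 2.42 for SLC5A3 (adjusted p = 1.07e-12) on the log2 scale, and that of SLC6A6 was lost without iohexol sample 1 (0.26, adjusted p = 0.0580), iohexol sample 2 (0.22, adjusted p = 0.0955) or vancomycin sample 2 (0.19, adjusted p = 0.114). Iohexol samples were higher than cisplatin samples for 6 genes and lower for HSPA4L (log2 −0.63, adjusted p = 4.42e-05), where 54.0% of all genes differed, 27.9% higher and 26.0% lower. NFAT5 was 1.10 higher on the log2 scale with iohexol than with vancomycin (adjusted p = 4.44e-06) and 0.80 higher than with cisplatin (adjusted p = 0.000176). Higher than with vancomycin did not always mean higher than control. Against control, SLC6A6 and HSPA4L were not called with iohexol (−0.19 and −0.29) and fell with vancomycin (−0.53 and −1.04). NFAT5 rose with iohexol (0.56) and fell with vancomycin (−0.59).

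Between cisplatin and vancomycin, 4 of the 7 genes differed, where 64.7% of all genes did, 30.0% higher and 34.7% lower with cisplatin. AKR1B1, SLC6A12 and SLC6A6 were lower with cisplatin, by log2 differences of −1.07, −1.74 and −0.66, and HSPA4L was higher, by 1.33 (adjusted p between 2.90e-11 and 8.13e-06, edgeR). SLC5A3, SLC38A2 and NFAT5 did not pass, with 95% intervals of −0.23 to 0.24, −0.19 to 0.20 and −0.02 to 0.62. NFAT5 passed as higher with cisplatin when these 2 groups were fitted alone (0.35, adjusted p = 0.0109), with all genes of at least 1 count (0.30, adjusted p = 0.00511), and without iohexol sample 3 (0.30, adjusted p = 0.0225) or vancomycin sample 1 (0.46, adjusted p = 0.0207). This contrast also depended on the scaling: without the TMM factors the median over all genes moved by 0.33 on the log2 scale, and all 7 genes passed, 4 higher and 3 lower in place of 1 higher and 3 lower. Among all genes the share of higher calls moved with it, from 46.4% to 66.4%. The same omission moved the median by 0.22 for cisplatin against control and the share of higher calls from 48.9% to 68.1%, by 0.21 for iohexol against vancomycin with a share going from 48.7% to 65.6%, and by −0.13 for iohexol against cisplatin with one going from 51.8% to 41.2%. For iohexol against control the share went from 53.4% to 67.5% while the 5 calls among the members were all upward in both.

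The wider pathway was followed in lists of related genes, whose counts are to be read against all genes tested, of which 11.2% rose and 9.77% fell with iohexol, 29.2% and 30.6% with cisplatin, and 29.0% and 28.8% with vancomycin. Of 12 other carriers of osmolytes, 11 were tested with iohexol, of which 5 rose and 1 fell. SLC6A9 and SLC6A13, carriers of glycine and of GABA, rose by 1.54 and 1.63 on the log2 scale (adjusted p = 0.000158 and 0.00152, edgeR), both from under 3 CPM in the control group, and the choline carrier SLC44A1 fell by 0.42 (adjusted p = 0.00944). The median of the list was 0.53, beside 0.01 over all genes. With cisplatin 3 rose and 5 fell of 10 tested, SLC44A1 among them with −1.62 and the inositol carrier SLC2A13 with −1.50, and with vancomycin 4 rose and 2 fell of 10 tested.

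Among genes that make or break down osmolytes, 4 of 15 tested rose with iohexol and none fell in edgeR's test, where 2 were lower at an unadjusted p under 0.05 and 0 in DESeq2. PNPLA6, a phospholipase able to yield glycerophosphocholine, rose by 1.02 on the log2 scale (adjusted p = 4.32e-05, edgeR), IMPA2, an inositol monophosphatase, rose by 0.91 (adjusted p = 0.000360), and MIOX, which opens the ring of myo-inositol, rose by 0.90 (adjusted p = 0.00311). The list's median was 0.14. With cisplatin 5 rose and 5 fell, IMPA2 by −1.20. With vancomycin 6 rose and 6 fell of 16 tested, and MIOX was among those that rose (0.87, adjusted p = 1.66e-06, edgeR). AKR1B10, the closest relative of AKR1B1 in the list, was near the floor of detection in the control samples (at most 0.25 CPM, where 3 counts correspond to 0.177 to 0.218 CPM in the 12 samples) and at 3.09 ± 0.28 CPM (SD, n = 3) with vancomycin.

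Other genes known from hypertonic media included ATP1B1, the β subunit of the sodium pump, which rose with iohexol from 151.7 ± 10.6 to 432.8 ± 38.1 CPM (SD, n = 3; log2 1.53, adjusted p = 6.81e-07, edgeR). In that list 4 of 15 rose, S100A4 (1.65) and the small chaperone CRYAB (1.12) among them, and 3 fell, SGK1, a kinase that acts on sodium transport, by −0.98. With vancomycin 12 of 16 rose and 2 fell, against 29.0% and 28.8% of all genes. There S100A4 rose by 3.12, the HSP70 genes HSPA1A and HSPA1B by 2.03 and 2.23, and CRYAB by 1.15, close to its value with iohexol. With cisplatin 6 rose and 6 fell of 15, against 29.2% and 30.6%. HSPA1A and HSPA1B are nearly identical copies, so their counts cannot be fully separated. Against vancomycin, iohexol samples were higher in 2 and lower in 9 of 16 genes of this list, beside 27.6% higher and 29.0% lower among all genes and 7 higher among the 7 members.

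Of 18 kinases and partners of NFAT5, 1 rose with iohexol, MAP2K6 (0.76, adjusted p = 0.0170, edgeR), a kinase that activates p38, and 2 fell, PARP1 (−0.30) and HSP90AA1 (−0.34). With cisplatin 2 rose and 8 fell, and with vancomycin 6 rose and 6 fell. None of the 3 tested NFATC genes, the calcineurin-dependent relatives of NFAT5, passed with iohexol in edgeR's test (1 at an unadjusted p under 0.05, NFATC4, and 0 in DESeq2). With cisplatin 3 of 3 tested passed, 1 up (NFATC4, 1.56) and 2 down, where 59.8% of all genes changed. With vancomycin 3 of 4 passed, 1 up (NFATC2, 2.32, from 0.33 CPM in the control group) and 2 down, where 57.9% of all genes changed. DESeq2 called 1 up and 1 down with each of these drugs. Of 17 tested genes of cell volume regulation 3 rose and 1 fell with iohexol, led by STK39 (1.30, adjusted p = 1.26e-05), a kinase that switches on the sodium-potassium-chloride cotransporter. With cisplatin 7 rose and 8 fell, STK39 by −1.58, where 59.8% of all genes changed, and with vancomycin 4 rose and 8 fell, where 57.9% did.

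Of the relatives of HSPA4L, HSPH1 (HSP110) rose with iohexol (log2 1.01, adjusted p = 0.000149, edgeR), cisplatin (0.28, adjusted p = 0.00334) and vancomycin (0.52, adjusted p = 4.84e-05), while HSPA4 fell with cisplatin (−0.31) and vancomycin (−0.43). HYOU1 fell with cisplatin (−0.37, adjusted p = 0.000350, edgeR) and did not pass with iohexol (−0.27) or vancomycin (0.20). Amino acid response genes, the company in which SLC38A2 is also known, rose in 7 of 12 cases with iohexol and fell in none (also 0 at an unadjusted p under 0.05 and in DESeq2), with DDIT3 at 1.26 (adjusted p = 6.90e-05) and CHAC1 at 1.35 (adjusted p = 0.000348). With vancomycin 6 rose and 1 fell, and DDIT3 was among those that rose (1.34, adjusted p = 2.79e-09, edgeR). With cisplatin 4 rose and 5 fell. The lists' medians with iohexol lay between −0.11 and 0.53, below that of the 7 members, 0.84. Members and lists alike were chosen with earlier results of these data known, so this order may follow from the choice.

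**Figure D5:**
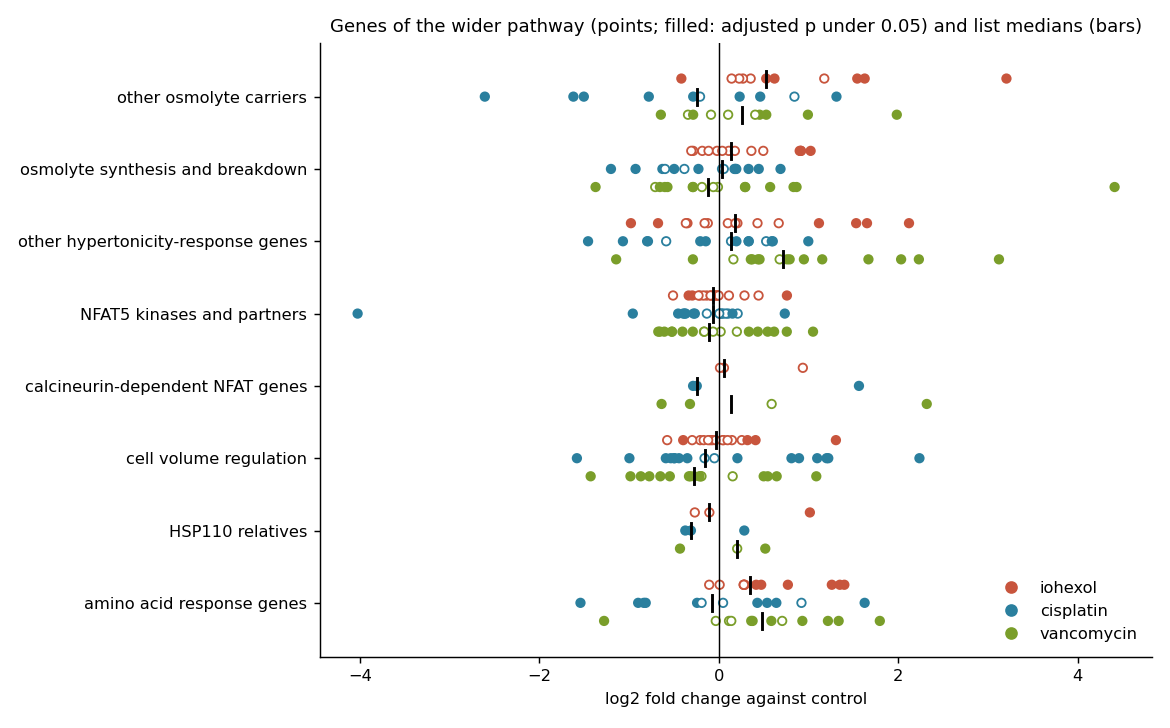
Log2 fold changes against control (horizontal axis) of the tested genes of each related list for the 3 drugs, with a point for each gene, filled where the adjusted p was under 0.05, and a bar for the list's median. With iohexol the highest of these medians is 0.53, for the other osmolyte carriers, and with vancomycin 0.72, for the other hypertonicity-response genes.

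Over the 12 samples, the genes whose log2 CPM ran most nearly parallel to a member are given as a description, since samples share groups. For AKR1B1 they were ATP1B1 (Pearson's r = 0.994), MRPS6 (0.987) and ACSL1 (0.986), and for SLC6A12 they were MRPS6 (0.994), LINC02015 (0.988) and PAIP2B (0.981). MRPS6 was thus closer to SLC6A12 than to SLC5A3, with which it shares a start and whose nearest were PAQR5 (0.990), NID2 (0.983) and RAB29 (0.977). SLC6A6 was nearest to ADD1 (0.989), ACTN4 (0.987) and ZC3H3 (0.986), and SLC38A2 to RYBP (0.977), CYP17A1 (0.965) and SLC39A6 (0.959). NFAT5 was nearest to RALGAPB (0.978) and HEATR5B (0.975), and HSPA4L to NOC3L (0.993), ZNF121 (0.993) and KRR1 (0.991). Among the members, AKR1B1 and SLC6A12 were most alike (0.971), while NFAT5 had r values of 0.59 with AKR1B1, 0.77 with SLC5A3 and 0.48 with SLC6A12.

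The samples held 14057282 to 18177109 counts, and their TMM factors were lowest with vancomycin (0.885 to 0.897) and highest with cisplatin (1.12 to 1.13). The renal and epithelial markers were detected for 9 of 13 genes at above 1 CPM in the control group, PAX8 and KRT8 among them, while LRP2, CDH1 and SLC34A1, which mark proximal tubule or epithelium, were at or near 0 in all groups. Their summed level lay between 1431 and 1624 CPM in control samples, between 1468 and 1777 in iohexol samples, between 1702 and 1767 in cisplatin samples and between 2169 and 2249 in vancomycin samples. Within these sums single markers moved in opposite directions. With cisplatin PAX8, EPCAM and MME averaged 131.4, 35.4 and 29.3 CPM, against 371.7, 101.0 and 62.8 CPM in the control group. KRT8 and KRT18 averaged 843.7 and 325.8 CPM with cisplatin, against 493.7 and 174.2 CPM in the control group. With iohexol PAX8, EPCAM and MME averaged above the control group, at 617.2, 117.6 and 101.1 CPM. KRT8 and KRT18 averaged below it, at 412.4 and 128.4 CPM. Of 5 fibroblast markers COL1A1, DCN and LUM were detected and COL1A2 and PDGFRA were at or near 0, with sums of 114.2 to 128.1 CPM in control samples and 239.8 to 276.0 with vancomycin, against 104.2 to 115.6 in the iohexol and cisplatin samples. Endothelial and blood markers summed to at most 4.21 and 0.405 CPM. The part of these differences in the values of the 7 genes was not tested, and in bulk RNA fewer cells that express a gene and less of its RNA per cell cannot be told apart.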

How the data were processed

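RNA of 12 HK-2 samples was measured by poly(A)-selected RNA sequencing. The authors deposited whole-number counts of reads per gene, without normalization, and a gene length, which is another deposited value and was used only for RPKM. The submitters' processing notes name CASAVA 1.8, fastp, HISAT2 2.0.5, featureCounts 1.5.0-p3 and DESeq2 1.20.0. The genome build, the annotation and the strand setting are not given in the sources used here. Of the 58735 genes, 58690 had the same position and strand in GENCODE 29 (GRCh38). Genes with an antisense neighbour can share reads without strand, and the antisense genes that share exon bases with a member had at most 10 counts.

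Differences were tested with edgeR 4.0.16 in R 4.3.3 (TMM scaling, filterByExpr at 10 counts minimum and 15 in total, quasi-likelihood F test). Each drug was fitted with the control samples alone, and all 12 samples were fitted together for contrasts between drugs. The study names limma for its test, and the count test was used because the values are counts. Genes whose p, after Benjamini-Hochberg adjustment over all genes tested, was under 0.05 were called, and DEGs also had to change by more than 1 in log2 units. The SE is the absolute log2 fold change over the root of F. CPM uses total counts times TMM factors. The floor of 3 counts covers counting error only.

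Every member is named. Of the other lists, at most 4 genes per comparison with the smallest p are named, with MRPS6, and for likeness the 3 genes with the highest Pearson's r of log2 CPM (prior count 2). The members and lists were chosen with earlier results of these data known. AKR1B10 is named with levels only. A gene that the likeness rule covers is not reported here. All count columns were matched to a sample. Alternatives were DESeq2 1.42.0, limma-voom of limma 3.58.1, RLE factors, library size only, other filters, other samples in the fit, the replicate number as a block and leaving out each sample. Only edgeR's main fit of iohexol against control was tested on simulated counts, with the same spread for all genes. The alternatives and the other steps were not.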

Additional observations from a re-analysis of the deposited data

How the results depend on the processing

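Over the alternatives tried, 211 of 216 counts of members kept within 1.5 times their value, and 826 of 864 log2 fold changes of members and MRPS6 kept their direction and their side of the threshold, while 13 became called, 16 lost the call and 9 changed sign. The count of members called with cisplatin went from 6 to 3 when all 4 groups were fitted together, and its 1 DEG became 0 with library size only. With library size only, members called between cisplatin and vancomycin went from 4 to 7. DEGs with vancomycin ranged from 1 to 2 when samples were left out. The causes were not tested.

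Sign changes were all near 0. For MRPS6 with cisplatin the value was 0.15 with library size only. Leaving out a sample, SLC5A3 with vancomycin ran from −0.00042 to 0.26, the lowest without vancomycin sample 1. Between cisplatin and vancomycin, SLC5A3 ran from −0.086 to 0.17, with 3 values below 0 (without cisplatin sample 1, vancomycin sample 2 or vancomycin sample 3), and SLC38A2 from −0.056 to 0.056, below 0 without the same 3 samples and, at −0.0024, with all genes of at least 1 count.

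Of 384 list counts, 369 stayed within 1.5 times. With iohexol, all genes of at least 1 count gave 7 in place of 4 for osmolyte synthesis, 1 in place of 0 for the NFATC genes and 2 in place of 1 for the HSP110 relatives. The fit of all groups gave 6 in place of 3 for NFAT5 partners.

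The labels do not say that the replicate numbers 1 to 3 pair the samples, and the numbers were not treated as pairs, since of 18 correlations of same-numbered residuals, from −0.18 to 0.10, 1 was over 0.1, and samples were closest to their own number in 6 of 6 for vancomycin with control, 5 of 6 for cisplatin and 0 of 6 for iohexol, so pairing is not shown, and for vancomycin and cisplatin it is not excluded. With the replicate number as a block, members called were 5 with iohexol, 6 with cisplatin and 6 with vancomycin, where SLC38A2 was added (0.18, adjusted p = 0.0316, edgeR). Genes called with iohexol over the whole table went from 3283 to 2096 with the block, NFAT5 partners from 3 to 1 and volume regulation from 4 to 1.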
